A study of Mus musculus with 8 samples.

Results

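The genes described here encode ligands through which a cell can restrain or engage lymphocytes and phagocytes. They are Pvr, Cd274, Pdcd1lg2, Cd80, Cd86, Lgals9, Fasl and Cd47, 8 genes out of 19505 with a symbol on the array, picked by name. They were measured in lung endothelial cells (lung EC) of mice carrying subcutaneous Lewis lung carcinoma (LLC), a mouse lung cancer line. Each gene had 1 probe set, so that the rule of taking the brightest probe set on average left no choice. Pvr was put at the head of the genes with its difference between the treatments already known, and its difference is therefore given without a test.

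Checkpoint ligands act by contact. Pvr (CD155) binds the inhibitory receptors TIGIT and CD96 and the activating receptor CD226 on T and NK cells. PD-L1 and PD-L2, encoded by Cd274 and Pdcd1lg2, engage PD-1, and CD80 and CD86 engage both the costimulatory receptor CD28 and the inhibitory receptor CTLA-4. Galectin-9 binds TIM-3 among other glycoproteins, Fas ligand triggers apoptosis through Fas, and CD47 restrains phagocytes through SIRPα and also binds thrombospondin 1. Endothelial cells line the vessel wall that circulating leukocytes and tumor cells meet, and interferon gamma is a strong inducer of Cd274 in many cell types.

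Of the 8 mice, 4 received AB-Tie1-39, an antibody that blocks the function of the endothelial receptor Tie1, and 4 received control IgG. All were C57BL/6N mice aged 8 weeks with LLC tumors, and both antibodies were given at 40 mg/kg 2 times per week. On day 14, lung EC were sorted as CD31+, CD45-, LYVE1-, PDPN-, TER119- and DAPI-, and the RNA of each mouse was hybridized to 1 Clariom S mouse array, which reports 1 brightness per transcript cluster. The label field for the antibody named targets other than Tie1 in 3 of the 4 AB-Tie1-39 samples while the titles of all 4 named Tie1, so the titles were followed. A protocol text in the labels speaks of liver while the source field names lung.

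All levels below are log2 of the deposited intensity, and all differences are AB-Tie1-39 minus IgG on that scale, with the standard error of limma, a linear model that moderates the spread of a probe set across the array. Over 22204 tested probe sets, 0.0% had an adjusted p under 0.05 (0 probe sets, smallest adjusted p 0.344). Without adjustment, p was under 0.05 for 482 probe sets with a higher level in AB-Tie1-39-treated mice (2.17%) and for 700 with a lower one (3.15%). The 4 and 4 values did not overlap for 307 probe sets that were higher (1.38%) and for 397 that were lower (1.79%). Median intensity lay between 183.8 and 189.6 on the 8 arrays. The hybridization controls, spiked in after labeling, measured 10.26 to 10.37 on arrays AB-Tie1-39 3, AB-Tie1-39 4, IgG 1 and IgG 2, and 10.64 to 10.93 on the other 4, so either set held 2 arrays of each treatment. The targeted gene Tie1 averaged 11.00 ± 0.11 in AB-Tie1-39-treated and 11.06 ± 0.20 in IgG-treated mice (SD, n = 4 each), a difference of -0.06 (SE 0.10, adjusted p 0.987), which checks no label since the antibody acts on the protein.

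The markers matched lung EC rather than liver, but genes of other cell types were bright as well. Sftpc, a gene of alveolar type 2 cells, averaged 11.92 over all arrays, beside 11.92 for Pecam1, the gene of CD31. The platelet gene Ppbp averaged 9.85. How far such cells or their RNA remained in the sorted samples was not tested. The 9 measured pan-endothelial marker genes, led by Cldn5, Cdh5 and Eng, summed to 34311 to 35536 in AB-Tie1-39-treated and 32513 to 34817 in IgG-treated mice (linear intensity), and none passed an unadjusted p under 0.05. The 10 lung EC genes, led by Hpgd, Tmem100 and Foxf1, summed to 23113 to 25187 and 23741 to 24361 in AB-Tie1-39- and IgG-treated mice. Those of liver sinusoidal EC, led by Gata4, Oit3 and Clec4g, summed to 1344 to 1431 and 1386 to 1558, and those of hepatocytes to 1425 to 1529 and 1362 to 1464, in the same order. Lyve1 stood at 12.0, although LYVE1+ cells had been gated out. Of 7 lymphatic EC genes 4 were lower in AB-Tie1-39-treated mice at an unadjusted p under 0.05, as were 3.15% of all probe sets. The 4 genes were Ccl21a (-0.60, adjusted p 0.344 in limma), Mmrn1 (-0.82), Reln (-0.48) and Prox1 (-0.40). None of these 4 overlapped between the treatments, as for 1.79% of all probe sets in this direction. The sums, 6688 to 7024 against 6404 to 8387, did overlap, and Lyve1, with a difference of 0.04, was the brightest gene in them. The summed levels of both treatments overlapped for macrophages and monocytes (4341 to 4513 in AB-Tie1-39- and 4307 to 4601 in IgG-treated mice), dendritic cells (1473 to 1959 and 1459 to 1676), B cells (698 to 760 and 743 to 761), neutrophils (1028 to 1293 and 1099 to 1280), erythroid cells (596 to 723 and 655 to 803) and fibroblasts, pericytes and smooth muscle (2321 to 2583 and 2298 to 3005), with at most 1 gene per list at that threshold in a direction. In the macrophage and monocyte sum Ly6c2 (11.3) outweighed the rest, whose list averaged 7.59 with it. On that list Mrc1 was lower by -0.65 (SE 0.12, unadjusted p 0.00026, adjusted p 0.440 in limma). Its groups did not overlap, as for 1.79% of all probe sets in this direction. Siglecf was higher by 0.18 (SE 0.07, unadjusted p 0.0388). The lists of epithelial cells, platelets and T and NK cells are given below beside the genes they accompany.

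Because interferon is the best-known inducer of such ligands, 2 promoters are shown. They are that of Lgals9, the only one of those searched with a match to an interferon element, and that of Cd274 for comparison. RefSeq promoters of assembly GRCm38.p6, running from 250 bases before to 50 bases after the annotated start, were found for 6 of the 8 genes (7 promoters). For Pvr and Cd86 none was available, so their promoters were not searched. In the Lgals9 promoter on chr11:78984875-78985174 (minus strand, 58.0% GC) the capitals mark 2 matches to the core of the interferon-stimulated response element, which was searched on both strands as GAAA, any 2 bases and GAAA. The Cd274 promoter on chr19:29367188-29367487 (plus strand, 52.7% GC) held no match and stands below it, both 5′ to 3′ on the gene's strand.
Lgals9: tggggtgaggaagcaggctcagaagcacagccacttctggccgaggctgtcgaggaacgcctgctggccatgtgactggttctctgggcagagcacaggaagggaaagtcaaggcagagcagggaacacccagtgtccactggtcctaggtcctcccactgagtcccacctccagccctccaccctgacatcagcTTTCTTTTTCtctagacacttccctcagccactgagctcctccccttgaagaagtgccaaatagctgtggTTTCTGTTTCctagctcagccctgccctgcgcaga
Cd274: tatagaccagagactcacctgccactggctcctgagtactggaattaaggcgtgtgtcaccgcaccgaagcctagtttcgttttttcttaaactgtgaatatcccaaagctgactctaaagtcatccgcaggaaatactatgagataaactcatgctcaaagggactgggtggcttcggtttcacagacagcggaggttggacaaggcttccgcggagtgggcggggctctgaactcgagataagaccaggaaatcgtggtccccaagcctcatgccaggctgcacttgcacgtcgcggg
The first match in Lgals9 began 55 bases before the start and the other 15 bases after it. That core was present in 3.44% of all 32851 RefSeq promoters of this length. The interferon gamma activated site TTCNNNGAA (8.30% of promoters) and the AP-1 site TGACTCA (5.20%) were searched likewise and did not occur in any of the 7 promoters of these genes, and the interferon core occurred only in that of Lgals9 among them. A match describes the letters and shows no binding. On the chromosomes, Cd274 and Pdcd1lg2 are neighbours on chromosome 19 with 0 protein-coding genes between them, Cd80, Cd86 and Cd47 lie on chromosome 16, and Pvr lies on chromosome 7.

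Pvr was higher in AB-Tie1-39-treated mice, with 1 pair of arrays out of order. Its level was 9.31, 9.22, 9.50 and 9.61 on the 4 AB-Tie1-39 arrays, against 9.17, 9.23, 9.16 and 8.95 on the 4 IgG arrays. Array AB-Tie1-39 2 lay 0.011 below IgG 2, and the other 3 AB-Tie1-39 arrays lay above every IgG array. The means were 9.41 ± 0.18 in AB-Tie1-39-treated and 9.13 ± 0.12 in IgG-treated mice (SD, n = 4 each), a difference of 0.28 (SE 0.10) or 1.22-fold. This difference is the one that selected the gene and is a description only. It was 0.35 among the arrays with low and 0.21 among those with high hybridization controls, and with 1 array left out it lay between 0.22 without AB-Tie1-39 4 and 0.35. Pvr was brighter than 96.9% of 5105 negative control probe sets.

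**Figure D1:**
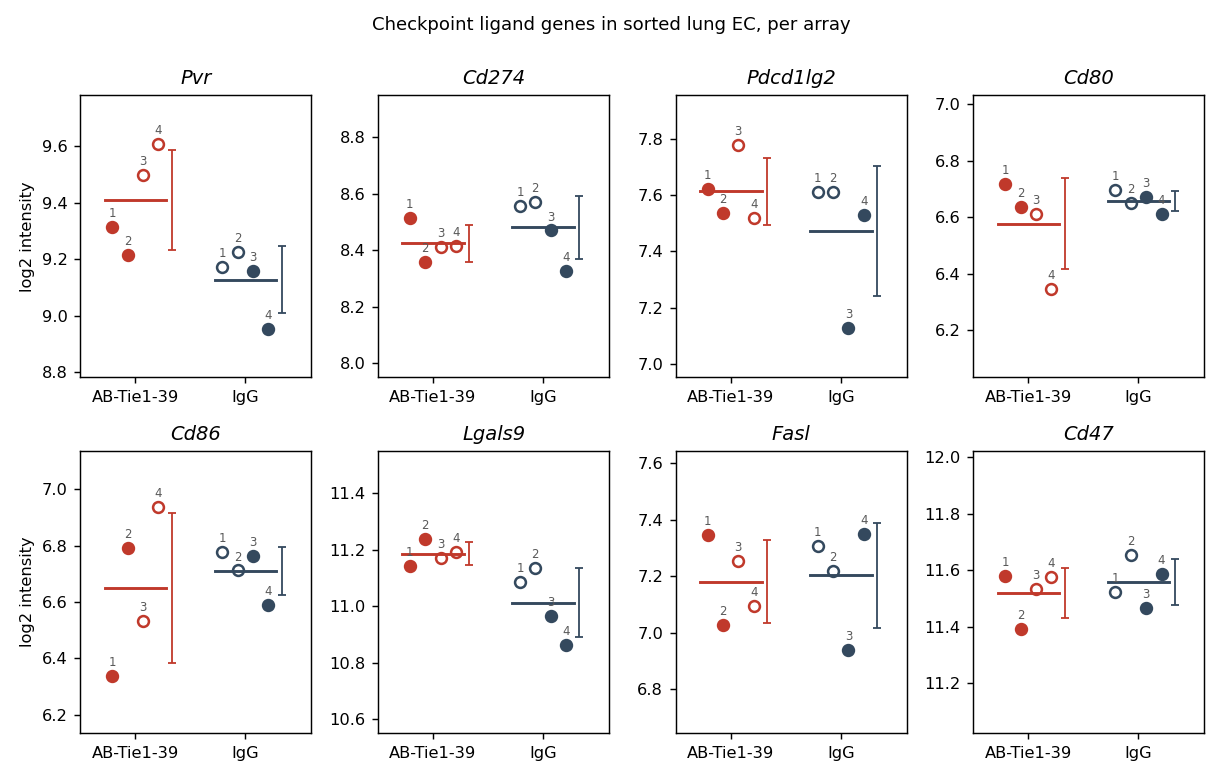
Log2 intensity of the 8 checkpoint ligand genes on each array, with AB-Tie1-39 on the left and IgG on the right of each panel. Points are arrays numbered by replicate (open, low hybridization controls; filled, high), the horizontal line is the mean and the bar beside it ± SD (n = 4); every panel spans the same log2 range around its own middle. Lgals9 is the only panel in which the 4 AB-Tie1-39 points all lie above the 4 IgG points, by 0.0073, and in Pvr 1 pair of arrays crosses.

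Epithelial marker genes were examined beside Pvr, although a CD31+ gate should leave epithelial cells out. The summed intensity of 10 alveolar type 2 cell markers, led by Sftpc, was 7294, 8352, 7860 and 10696 on the AB-Tie1-39 arrays and 6100, 5996, 6707 and 8211 on the IgG arrays, and 5 of these genes were higher in AB-Tie1-39-treated mice at an unadjusted p under 0.05. The 7 measured markers of alveolar type 1 cells and airway epithelium summed to 2232 to 3294 and to 1923 to 2558 in AB-Tie1-39- and IgG-treated mice, with 1 higher. Of all probe sets 2.17% passed that threshold in this direction, and no gene of either list had an adjusted p under 0.05. Array AB-Tie1-39 4 had the highest sum of both lists and the highest Pvr, whereas IgG 4 had the highest sum of both lists among the IgG arrays and the lowest Pvr. The part of these cells in the Pvr difference was not tested. In such bulk samples fewer or more cells of a type and less or more RNA per cell cannot be told apart.

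Around their group means, Pvr moved most like Usp39 (r = 0.98), Tmem102 (0.98), Ppp1r12a (0.97), Mrrf (0.97) and Macir (0.97). These are Pearson correlations over the 8 arrays after subtraction of each treatment's mean, the highest among 9973 genes at or above the median level. The same measure between Pvr and the other checkpoint ligands ran from -0.55 for Cd80 to 0.48 for Cd274. The differences between treatments of these 5 genes were 0.14 (SE 0.09) for Usp39, 0.18 (SE 0.09) for Tmem102, -0.05 (SE 0.10) for Ppp1r12a, 0.06 (SE 0.11) for Mrrf and 0.04 (SE 0.07) for Macir. For Cd274 the most alike were Lsm4 (r = 0.97), Hsd17b12 (0.97), Plcb2 (0.97), Fam222a (0.96) and Ppan (0.96). With 8 arrays and many genes screened, high correlations arise readily and are given as a description.

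Of the other 7 checkpoint ligands, Lgals9 was higher at an unadjusted p under 0.05 and 0 were lower. None passed an adjusted p under 0.05 (adjusted p 0.932 to 0.996). Counting Pvr, 3 genes had a higher and 5 a lower mean in AB-Tie1-39-treated mice, with a median difference of -0.03 against -0.0045 over all tested probe sets. The levels of Pvr, Lgals9 and Cd47 lay above the 95th percentile of the negative control probe sets, 8.93, and those of the other 5 lay below it, where a small difference in RNA is hard to tell from background brightness.

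Lgals9, encoding galectin-9, was bright and differed little between the treatments. It measured 11.14, 11.24, 11.17 and 11.19 in AB-Tie1-39-treated mice, against 11.09, 11.14, 10.96 and 10.86 in IgG-treated mice. The groups did not overlap, as for 1.38% of all probe sets in this direction, but array AB-Tie1-39 1 exceeded IgG 2 by only 0.0073, and most of the distance came from IgG 3 and IgG 4. The means were 11.19 ± 0.040 in AB-Tie1-39-treated and 11.01 ± 0.12 in IgG-treated mice (SD, n = 4 each). The difference was 0.17 (SE 0.08, 95% confidence interval 0.0025 to 0.35, 1.13-fold, unadjusted p 0.0473, adjusted p 0.932 in limma). It was 0.07 within the arrays with low and 0.28 within those with high hybridization controls. Under the other settings run, the unadjusted p was under 0.05 in 8 of 17, and it lay above 0.05 without IgG 3, without IgG 4 and without any single AB-Tie1-39 array (0.12 for the difference and for its p without IgG 4). The same threshold was passed by 2.17% of all probe sets in this direction.

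The ligands of PD-1 did not pass the test in either direction. Cd274 measured 8.52, 8.36, 8.41 and 8.41 in AB-Tie1-39-treated mice, against 8.56, 8.57, 8.47 and 8.33 in IgG-treated mice. The groups overlapped, with IgG 4 below all other arrays. The difference was -0.06 (SE 0.08, interval -0.23 to 0.12, adjusted p 0.985), -0.15 within low and 0.04 within high hybridization controls. Pdcd1lg2 measured 7.62, 7.54, 7.78 and 7.52 in AB-Tie1-39-treated mice, against 7.61, 7.61, 7.13 and 7.53 in IgG-treated mice. Its positive difference of 0.14 (SE 0.12, interval -0.11 to 0.40, adjusted p 0.966) rested on the low array IgG 3, without which it was 0.03. Although the genes are neighbours, their differences had opposite signs.

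The costimulatory ligands Cd80 and Cd86 were dim, brighter than 40.9% and 43.4% of the negative control probe sets. Cd80 measured 6.72, 6.64, 6.61 and 6.35 in AB-Tie1-39-treated mice, against 6.70, 6.65, 6.67 and 6.61 in IgG-treated mice. The difference of -0.08 (SE 0.09, interval -0.27 to 0.11, adjusted p 0.977) came mostly from AB-Tie1-39 4 and was -0.0023 without it. Cd86 measured 6.34, 6.79, 6.53 and 6.94 in AB-Tie1-39-treated mice, against 6.78, 6.71, 6.76 and 6.59 in IgG-treated mice. Its AB-Tie1-39 values spread on both sides of the IgG values, with a difference of -0.06 (SE 0.12, interval -0.33 to 0.21, adjusted p 0.990) that turned to 0.04 without AB-Tie1-39 1.

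Fasl and Cd47 had differences near 0. Fasl, the gene of the death ligand, measured 7.35, 7.03, 7.25 and 7.09 in AB-Tie1-39-treated mice, against 7.31, 7.22, 6.94 and 7.35 in IgG-treated mice. Both groups covered nearly the same range, and the difference was -0.02 (SE 0.11, interval -0.26 to 0.22, adjusted p 0.996). Cd47 measured 11.58, 11.39, 11.53 and 11.58 in AB-Tie1-39-treated mice, against 11.52, 11.65, 11.47 and 11.59 in IgG-treated mice. It was brighter than 99.6% of the negative control probe sets, and its difference was -0.04 (SE 0.08, interval -0.20 to 0.13, adjusted p 0.990).

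**Figure D2:**
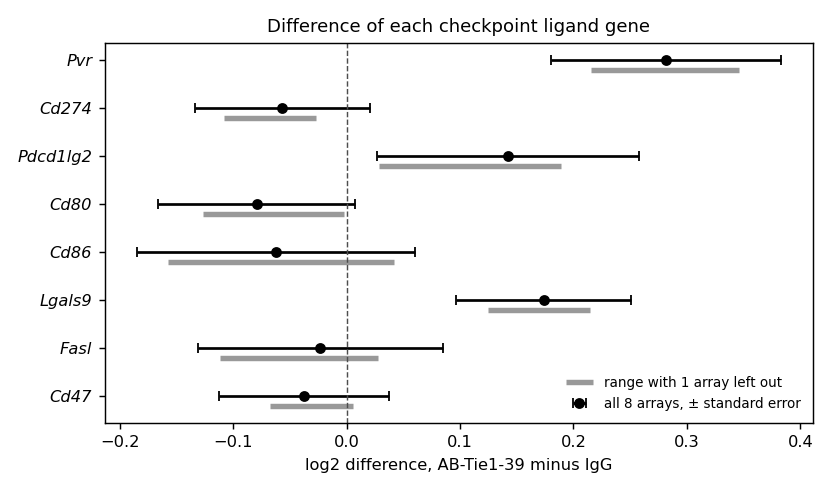
Log2 difference, AB-Tie1-39 minus IgG, of the 8 checkpoint ligand genes. Black points with bars are the differences over all 8 arrays ± standard error, and gray bars span the differences with 1 array left out. Cd86, Fasl and Cd47 have gray bars that cross 0. Those of Pvr (0.22 to 0.35), Lgals9 (0.12 to 0.21) and Pdcd1lg2 (0.03 to 0.19) lie above it, and those of Cd274 (-0.11 to -0.03) and Cd80 (-0.13 to -0.0023) below it.

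The receptors, related ligands and regulators of these genes were followed in 6 lists of 88 genes, of which 83 were measured. In AB-Tie1-39-treated mice 38 had a higher and 45 a lower mean, with a median difference of -0.0060. At an unadjusted p under 0.05, 1 was higher (1.20% of those measured, against 2.17% of all probe sets) and 4 were lower (4.82%, against 3.15%), and 0 passed the adjusted threshold (smallest adjusted p 0.805).

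Among 11 measured receptors of Pvr and nectin-type ligands, 7 had a higher mean (median difference 0.02), and Cd226 and Nectin2 were lower at an unadjusted p under 0.05. Cd226, the activating receptor, measured 7.18, 7.31, 7.34 and 7.01 in AB-Tie1-39-treated mice, against 7.55, 8.01, 7.92 and 7.21 in IgG-treated mice. Arrays IgG 1 to IgG 3 lay above every AB-Tie1-39 array, and IgG 4 lay among them. The means were 7.21 ± 0.15 in AB-Tie1-39-treated and 7.67 ± 0.37 in IgG-treated mice (SD, n = 4 each), a difference of -0.46 (SE 0.16, unadjusted p 0.0168, adjusted p 0.887), at a level brighter than 72.9% of the negative controls. Without IgG 2, IgG 3 or AB-Tie1-39 4 the unadjusted p was above 0.05, and the exact two-sided Mann-Whitney test gave p = 0.114 for all arrays (its smallest possible p is 0.0286).

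CD226 is carried by T and NK cells and also by platelets, and the sort excluded CD45+ cells, which T and NK cells are. The summed intensity of 10 platelet and megakaryocyte markers was 3503, 3987, 3583 and 3549 on the AB-Tie1-39 arrays and 5240, 5905, 6075 and 3676 on the IgG arrays, and 7 of these genes were lower in AB-Tie1-39-treated mice at an unadjusted p under 0.05. IgG 4 stood with the AB-Tie1-39 arrays, as it did for Cd226. The 11 measured T and NK cell markers summed to 1190 to 1285 in AB-Tie1-39-treated and 1311 to 1395 in IgG-treated mice. At that threshold 3 were lower and 0 higher, and the differences ran from -0.31 to 0.19. Of all probe sets 3.15% passed it as lower and 2.17% as higher, and no platelet, T or NK cell marker had an adjusted p under 0.05. The T and NK cell markers were dim, with a mean level of 6.80 beside a median of 6.81 for the negative controls. Of the 11, 10 lay below the median of the tested probe sets. The part of platelets and of T and NK cells in the Cd226 difference was not tested.

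Nectin2 (CD112), which shares the receptor CD226 with Pvr, had a difference opposite in sign to that of Pvr. It measured 6.93, 7.03, 7.23 and 7.21 in AB-Tie1-39-treated mice, against 7.40, 7.35, 7.25 and 7.40 in IgG-treated mice. The groups did not overlap, as for 1.79% of all probe sets in this direction. The difference was -0.25 (SE 0.09, unadjusted p 0.0150, adjusted p 0.878), with an unadjusted p under 0.05 in every setting in which it was tested, but the probe set was brighter than only 66.7% of the negative controls. Nectin3, another nectin that binds Pvr, measured 8.74, 8.97, 9.20 and 8.90 in AB-Tie1-39-treated mice, against 8.85, 8.84, 8.81 and 8.79 in IgG-treated mice, and its difference of 0.13 (SE 0.09) did not pass (unadjusted p 0.196). The inhibitory receptor Tigit had a difference of -0.14 (SE 0.10) and Cd96 one of 0.01 (SE 0.10), both dim and overlapping between the treatments.

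**Figure D3:**
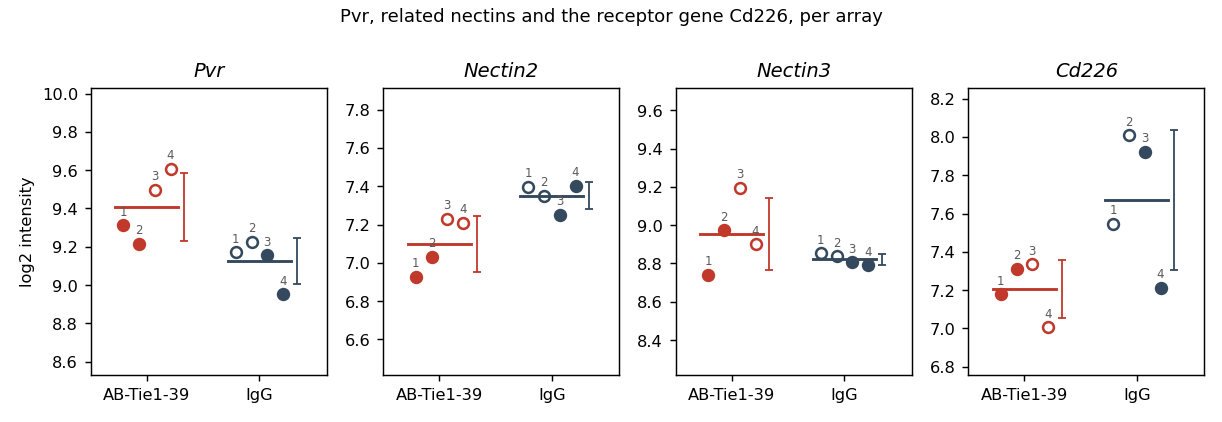
Log2 intensity of Pvr, the nectin genes Nectin2 and Nectin3 and the receptor gene Cd226 on each array, with AB-Tie1-39 on the left and IgG on the right. Points are arrays numbered by replicate (open, low hybridization controls; filled, high), lines are means and bars ± SD (n = 4); Nectin2 is lower on all 4 AB-Tie1-39 arrays (6.93 to 7.23) than on the IgG arrays (7.25 to 7.40), and Cd226 is high on IgG 1 to IgG 3 but not on IgG 4.

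Of the 12 receptors and cofactors of the other ligands, 9 had a lower mean (median difference -0.10) and none passed an unadjusted p under 0.05. Thbs1, the thrombospondin that binds CD47 and a major platelet protein, measured 8.98, 9.11, 8.96 and 8.78 in AB-Tie1-39-treated mice, against 9.84, 9.84, 10.08 and 8.52 in IgG-treated mice. IgG 1 to IgG 3 lay above and IgG 4 below every AB-Tie1-39 array. In the platelet sums IgG 1 to IgG 3 were likewise above every AB-Tie1-39 array, while IgG 4 lay among them, and their part in Thbs1 was not tested. Thbs1 had a difference of -0.61 (SE 0.28, unadjusted p 0.055). Havcr2, the gene of the galectin-9 receptor TIM-3, had a difference of -0.18 (SE 0.10, unadjusted p 0.107), and Ctla4 one of 0.15 (SE 0.10, unadjusted p 0.161). Both were dim, brighter than only 26.8% and 31.2% of the negative controls.

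In the list of 23 other B7-type and inhibitory genes, 10 had a higher mean (median difference -0.02). Fgl2, a fibrinogen-like protein with inhibitory and procoagulant forms, measured 8.53, 8.40, 8.52 and 8.50 in AB-Tie1-39-treated mice, against 9.25, 9.09, 9.19 and 8.54 in IgG-treated mice. The groups did not overlap, as for 1.79% of all probe sets in this direction, but IgG 4 stood just above the AB-Tie1-39 arrays. Fgl2 averaged 8.75 over all arrays, below the 95th percentile of the negative controls, 8.93. The means were 8.49 ± 0.057 in AB-Tie1-39-treated and 9.02 ± 0.33 in IgG-treated mice (SD, n = 4 each), a difference of -0.53 (SE 0.14, unadjusted p 0.0035, adjusted p 0.805 in limma). Without IgG 4 the difference was -0.69 with an adjusted p of 0.0195 in limma. In that setting 18 probe sets of the whole array had an adjusted p under 0.05, against 0 with all arrays. As in the platelet sums, IgG 1 to IgG 3 lay above IgG 4 and above every AB-Tie1-39 array, but array AB-Tie1-39 2 had the highest platelet sum of its group and the lowest Fgl2, and the part of platelets was not tested.

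Cd24a, encoding the ligand of Siglec-10 in human, measured 8.31, 8.39, 7.46 and 7.64 in AB-Tie1-39-treated mice, against 7.39, 7.48, 7.47 and 7.60 in IgG-treated mice. AB-Tie1-39 1 and AB-Tie1-39 2 were high and AB-Tie1-39 3 lay inside the IgG range. Cd24a averaged 7.72 over all arrays, below the 95th percentile of the negative controls, 8.93. The difference was 0.47 (SE 0.19, unadjusted p 0.0347, adjusted p 0.930), 0.12 within low and 0.82 within high hybridization controls. Its unadjusted p exceeded 0.05 without AB-Tie1-39 1, AB-Tie1-39 2, IgG 1, IgG 2 or IgG 3. Vtcn1, the B7-H4 gene, was lower by a difference of -0.22 (SE 0.09, unadjusted p 0.0432, adjusted p 0.930) at a level that 59.1% of the negative controls did not reach, and its unadjusted p exceeded 0.05 on leaving out any array but AB-Tie1-39 2 or IgG 3, and with quantile normalization (0.0653).

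**Figure D4:**
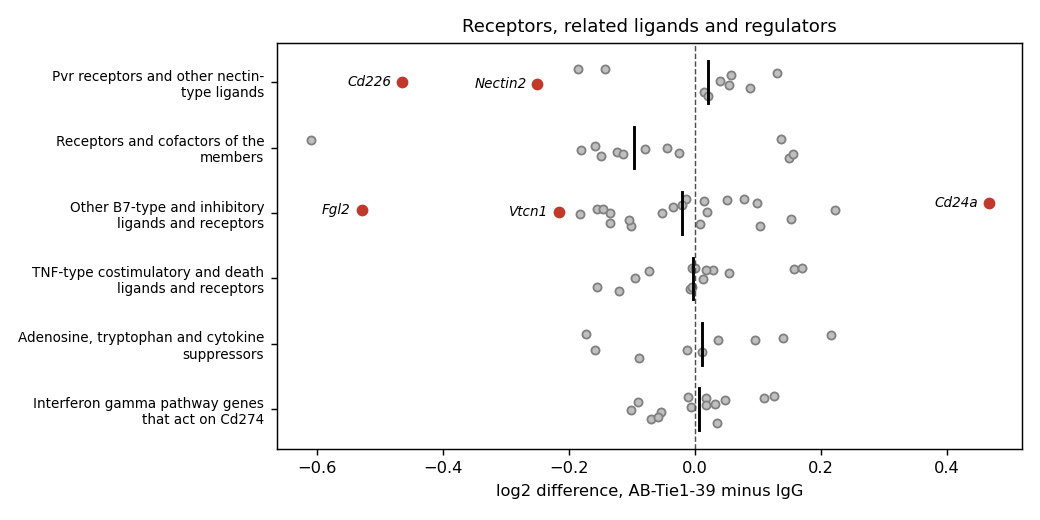
Log2 difference, AB-Tie1-39 minus IgG, of the 83 measured receptors, related ligands and regulators in 6 lists. Each point is a gene, red and named where the unadjusted p of limma was under 0.05 (1 higher and 4 lower), and the vertical bar is the median of the list, between -0.10 and 0.02; the vertical position within a list carries no meaning.

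The remaining lists held no gene at an unadjusted p under 0.05. Of 14 TNF-type costimulatory and death ligands and receptors, 6 had a higher mean (median difference -0.0026), and the smallest p belonged to Tnfrsf9 (0.16, SE 0.08), Cd70 (-0.16, SE 0.08) and Tnfsf15 (-0.12, SE 0.09). Of 9 genes of adenosine, tryptophan and cytokine suppressors, 5 had a higher mean (median difference 0.01), with Nos2 at 0.22 (SE 0.11), Arg1 at -0.17 (SE 0.09) and Ido2 at 0.14 (SE 0.12). Of 14 genes of the interferon gamma pathway that acts on Cd274, 7 had a higher mean (median difference 0.0058), with Ifng at 0.13 (SE 0.11), Ifngr2 at -0.10 (SE 0.09) and Ifngr1 at -0.07 (SE 0.07). Of the genes named from these lists, Ifngr1 and Ifngr2 lay above the 95th percentile of the negative controls, 8.93. The others lay below it, and Cd70, Arg1 and Ifng were brighter than only 18.9%, 39.5% and 54.0% of the negative controls.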

How the data were processed

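The deposited table gives, for every probe set on each of the 8 arrays, a linear intensity that the authors had normalized across arrays by a method not given in the sources used here. The table holds 29129 probe sets, of which 6923 are controls, and 0 columns of other samples. Log2 intensities of the 22204 other probe sets with values (2 more could not be tested) were compared with limma 3.58.1 in R 4.3.3, by eBayes without trend and with Benjamini-Hochberg adjustment over all of them. Symbols came from the platform annotation (19572 probe sets had 1 symbol and 2632 none), and promoters from RefSeq assembly GRCm38.p6. Array brightness is not a count, so the number of arrays limits the precision, and 1 array was run per mouse.

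Named are the 8 checkpoint ligand genes, Tie1, the genes of each partner list at an unadjusted p under 0.05 or else up to 3 with the smallest p, the brightest markers, and the 5 genes most like Pvr and most like Cd274. Lyve1, Tigit, Cd96, Nectin3, Mmrn1, Reln, Prox1, Mrc1 and Siglecf are also named, a choice made with their values in view. The genes, the partner and marker lists and the alternatives were chosen with earlier results of these data known. As alternatives, the arrays were renormalized (quantiles, medians), weighted, left out singly, or blocked by replicate number or hybridization controls, dim probe sets were removed, the variance was given a trend, and an exact Mann-Whitney test was run. The block of hybridization controls without IgG 4 was chosen after seeing the data.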

Additional observations from a re-analysis of the deposited data

How the results depend on the processing

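The checkpoint ligand genes other than Pvr stayed above an adjusted p of 0.05 under every alternative run (adjusted p 0.812 to 1). Among arrays whose hybridization controls were low, and among those whose controls were high, the difference was -0.151 and 0.0376 for Cd274 and 0.0713 and 0.276 for Lgals9. With 1 array left out it ran from -0.158 to 0.0421 for Cd86, from -0.112 to 0.0278 for Fasl and from -0.0676 to 0.00568 for Cd47, and blocking on the hybridization controls without IgG 4 gave 0.0464 for Fasl; the cause was not tested. The count of all probe sets at an adjusted p under 0.05 lay between 0 and 18 with 1 array left out, highest without IgG 4, and that of receptors, related ligands and regulators that were higher at an unadjusted p under 0.05 between 0 and 2. With bright probe sets only, which leaves fewer probe sets to test, unadjusted p was under 0.05 for 301 probe sets with a higher and 340 with a lower level, and by the exact Mann-Whitney test for 307 and 396. Cd80, Cd86 and Fasl fell below the brightness filter and have no value there, and averaging probe sets changed nothing since each gene has 1.

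Arrays of the same replicate number did not deviate together (correlations -0.05 to 0.0066), so the numbers do not pair them. Each number holds an array of either treatment, so a replicate block cannot change the differences of these genes, only their standard errors and p. With it the standard error of the Pvr difference was 0.12, against 0.10 without it. The unadjusted p of Lgals9 in limma was 0.0715 with the block. The unadjusted p was then under 0.05 for 457 probe sets with a higher and 684 with a lower level. The dim levels of Cd80, Cd86, Fasl, Pdcd1lg2 and Cd274, below the 95th percentile of the negative controls, limit what their differences can show.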
